A study of Mus musculus with 19 samples.

Results

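Transcripts of the transforming growth factor beta (TGF-beta) pathway were followed in fat and in pancreatic lymph nodes (PLNs) of non-obese diabetic (NOD) mice: the ligands Tgfb1, Tgfb2 and Tgfb3, the receptors Tgfbr1 and Tgfbr2, the signal transducers Smad2, Smad3 and Smad4, the inhibitory Smad7, and Tgfbi, a gene named for its induction by the ligand. Every probe set of the Affymetrix mouse array whose annotated symbol is 1 of these 10 genes was taken, which gave 27 probe sets of the 45037 tested and 10 genes of the 18193 measured. All 10 genes were found, each through 1 to 4 probe sets. The symbols alone decided which probe sets were taken, and the genes were chosen with earlier results of these data known.

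The arrays hold female NOD (NOD/LtJx) mice only, so every group carries the autoimmune background of that strain. Fat was profiled in new onset diabetic mice treated with the power mix (PM, 3 arrays), which combines an IL2.Ig, a mutant antagonist-type IL15.Ig and rapamycin, in new onset diabetic mice treated with alpha1 antitrypsin (AAT, 2 arrays), in new onset diabetic mice without these agents (DIA, 2 arrays), and in normoglycemic mice (NOR, 2 arrays). PLNs were profiled in AAT treated (4 arrays), DIA (2 arrays) and NOR mice (4 arrays), and no PM PLN arrays are among those analysed here. The labels name the tissue only as fat. In the insulin signaling experiments of the study, fat dissected for immunoblots and RNA was epididymal white adipose tissue, a depot named in males, and whether the arrayed fat of these female mice was that fat is not stated. The age at sampling, the doses of AAT and PM, and whether the arrays of a group came from different mice are not given in the sources used here, so p-values measure only the spread between these arrays, which may be technical. The questions were whether diabetes changed these transcripts and whether either treatment moved them back.

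TGF-beta ligands are made as latent complexes that must be freed before they bind. The ligand first engages the type II receptor, Tgfbr2, which recruits and phosphorylates the type I receptor, Tgfbr1. The activated type I receptor phosphorylates Smad2 and Smad3, which join Smad4 and enter the nucleus, while Smad7 blocks the receptor and is itself induced by the pathway, as a negative feedback. In lymphoid tissue the pathway is known for restraining T cells and for supporting regulatory T cells, and in fat for acting on fibroblasts, matrix and adipocyte precursors. Tgfbi encodes a secreted matrix protein that binds integrins and collagen.

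In fat, Tgfbi had more probe sets past the study's thresholds, given below, than any other member. The 250 bases before its start are therefore shown, with those of the ligand gene Tgfb2, which differed between tissues, for comparison. The Tgfbi gene lies at chr13:56609586-56639359 and the window at chr13:56609336-56609585 on the plus strand, and the Tgfb2 gene lies at chr1:186622787-186709697 and its window at chr1:186705990-186706239 on the minus strand (RefSeq, GRCm38.p6), where the start used for Tgfb2 lies inside the span given for the gene. Capitals mark CAGAC, the short box that Smad3 and Smad4 bind, or GTCTG, the same box on the other strand.
Tgfbi: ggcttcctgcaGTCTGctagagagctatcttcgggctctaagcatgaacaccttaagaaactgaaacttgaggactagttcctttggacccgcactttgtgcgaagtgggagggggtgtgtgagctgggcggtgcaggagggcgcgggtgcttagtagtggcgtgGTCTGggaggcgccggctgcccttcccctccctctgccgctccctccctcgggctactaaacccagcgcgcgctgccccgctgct
Tgfb2: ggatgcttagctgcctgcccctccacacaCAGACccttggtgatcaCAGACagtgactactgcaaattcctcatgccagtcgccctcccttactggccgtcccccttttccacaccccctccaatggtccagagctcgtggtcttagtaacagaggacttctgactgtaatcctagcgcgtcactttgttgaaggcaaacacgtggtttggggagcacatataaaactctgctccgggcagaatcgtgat
Each window holds the box 2 times, 239 and 85 bases before the start in Tgfbi and 221 and 204 bases before it in Tgfb2. Among the other members searched, the box occurs 0 times in Tgfb1 and in Smad3 and 1 time in Tgfbr2. The Tgfbr1 windows hold it 0 and 1 times. The box is common, since 42.2% of 32851 promoter windows of this length hold it on either strand. The Tgfb2 window also holds the motif TATAAA 31 bases before the start, a motif found in 12.4% of the windows, and the Tgfbi window holds GGGCGG 124 bases before it, found in 32.7% of them, both counted on either strand. A match describes letters only.

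Values are MAS5 signals, a linear brightness that the deposited processing scaled to the same trimmed mean on every array. Levels are compared between arrays for 1 probe set at a time and never between probe sets. Changes are log2 differences of group means in a limma fit, given with their standard error (SE) and relative to the median change of all transcripts, which was shifted by -0.11 in fat DIA vs NOR, -0.05 in AAT vs DIA, 0.15 in PM vs DIA, -0.13 in AAT vs NOR, 0.02 in PM vs NOR and 0.17 in PM vs AAT, and in PLNs by -0.11 in DIA vs NOR, -0.58 in AAT vs DIA and -0.72 in AAT vs NOR. Between tissues it was shifted by 0.29 for fat minus PLNs, and the tissue difference by 0.095 for the DIA vs NOR change and 0.48 for the AAT vs DIA change. The word called is kept for an adjusted p (Benjamini and Hochberg, over every probe set) below 0.05. Every adjusted p tests the change before the median was subtracted, and not the relative change printed beside it. The methods of the study used a 2-fold change together with a p of 0.05 or less without adjustment, and these study's thresholds were set against the change before the median was subtracted. A gene with several probe sets is given first by the one with the highest mean, except Smad7, where 1423389_at stands first because the suffix of the other, 1443771_x_at, marks probes that may also match other transcripts. The Tgfbi probe sets 1456250_x_at, which stands first for its gene, and 1437463_x_at carry the same suffix and the same limit. The plain Tgfbi probe set, 1415871_at, passed the study's thresholds in fat AAT vs NOR and PM vs AAT. It did not pass in fat DIA vs NOR or PM vs DIA. A direction holds for the probe set named and not for the gene as a whole.

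The labelled tissues were borne out by their markers. The summed signal of 10 measured adipocyte genes was 152617 to 338458 in fat arrays and 3470.54 to 28554.8 in PLN arrays, and that of 10 measured T cell genes was 1208.07 to 3626.25 in fat and 24624.6 to 49349 in PLNs. In these bulk samples fewer cells of a type and less RNA per cell cannot be told apart. Correlations of log2 signal between arrays of the same group spanned 0.789 to 0.866 (fat) and 0.705 to 0.890 (PLNs). The number of arrays limits the precision, and the median SE of a log2 change was 0.783 for DIA vs NOR in fat and 0.957 in PLNs. PLN AAT replicate 3 stood apart, with a summed signal of 8 measured pancreatic acinar genes of 293077 against 580.176 to 2816.27 on the other AAT arrays, and PLN DIA replicate 1 had 15022.2 against 1196.76 on the other DIA array.

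**Figure D1:**
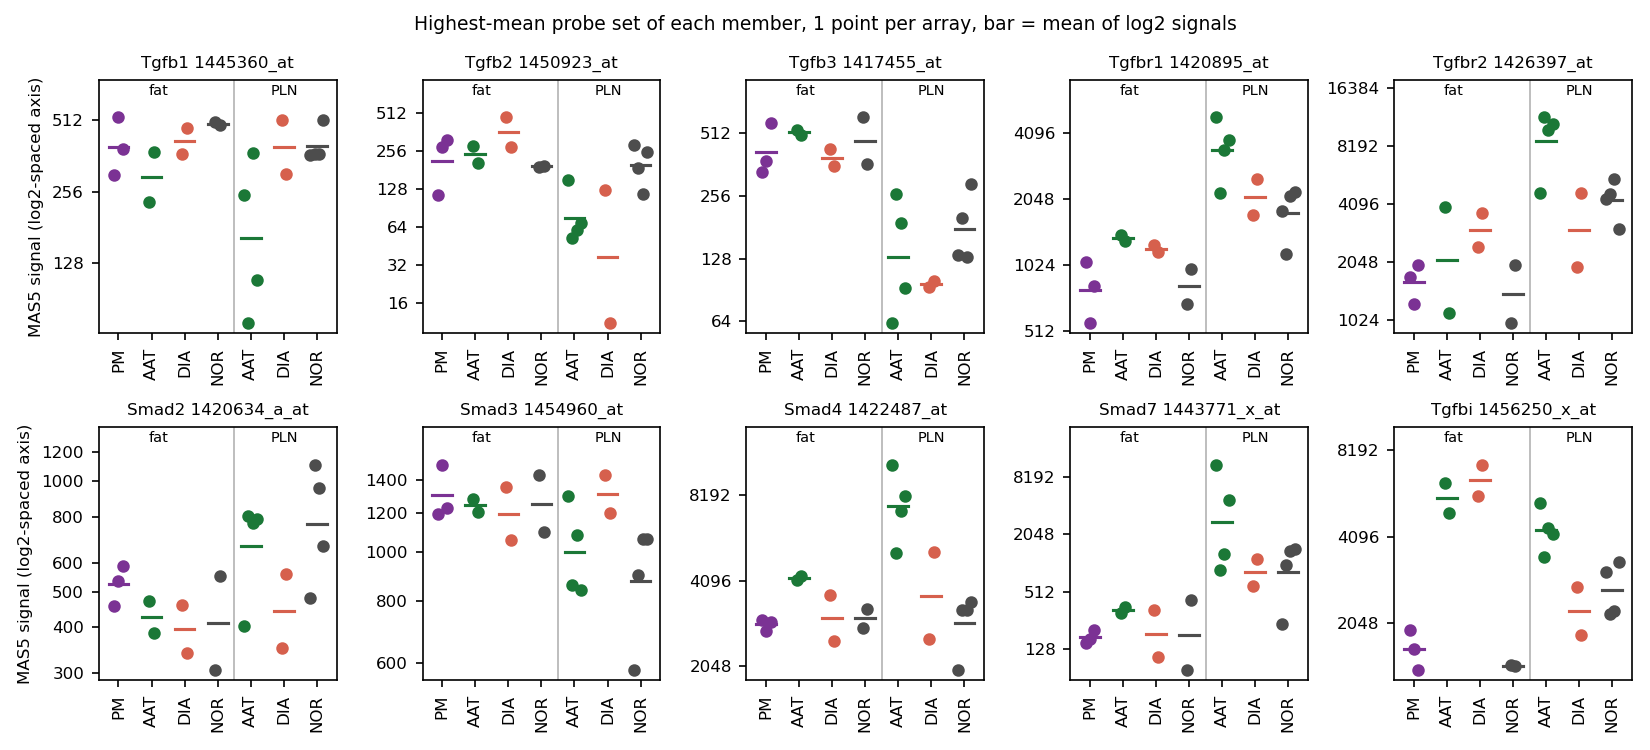
The highest-mean probe set of each of the 10 members. Each point is the MAS5 signal of 1 array (vertical axis, log2-spaced), the bar is the mean of the log2 signals, and the groups PM, AAT, DIA and NOR of fat stand left of AAT, DIA and NOR of PLNs. The Tgfbi signals of DIA and AAT fat, 4958 to 7295, sit above those of PM and NOR fat, 1414 to 1951.

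In fat, Tgfbi was higher in diabetic than in normal mice, lay in the range of diabetic mice after AAT, and was lower than in diabetic mice after PM, by the study's thresholds. The probe set with the highest mean, 1456250_x_at, had signals of 5692 and 7295 in DIA fat and of 1472 and 1454 in NOR fat. The groups did not overlap, and the difference was 4.41-fold as measured, or 2.25 on the log2 scale relative to the median (SE 0.30). Its adjusted p of 0.143 in limma missed the threshold, and no transcript of the comparison had a smaller one. A second probe set, 1448123_s_at, had signals of 1959 and 2879 in DIA fat against 975 and 517 in NOR fat, a change of 1.85 (SE 0.39, adjusted p = 0.388), and also passed the study's thresholds. The remaining probe sets lay in the same direction without passing, at 1.09 for 1415871_at, with 572 and 1176 in DIA fat and 513 and 334 in NOR fat, and 0.92 for 1437463_x_at.

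PM fat had Tgfbi signals below those of diabetic fat. On 1456250_x_at they were 1951, 1674 and 1414 in PM fat against 5692 and 7295 in DIA fat. All 3 PM arrays lay below both DIA arrays, and the change was -2.10 (SE 0.27, adjusted p = 0.112). On 1448123_s_at the signals were 696, 1067 and 738 in PM fat and 1959 and 2879 in DIA fat, a change of -1.68 (SE 0.35, adjusted p = 0.330), and both probe sets passed the study's thresholds. Against NOR fat, PM fat differed by 0.17 (SE 0.27) and 0.19 (SE 0.35) on these probe sets, and neither passed a threshold.

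AAT fat had Tgfbi signals in the range of diabetic fat. On 1456250_x_at they were 6292 and 4958 in AAT fat against 5692 and 7295 in DIA fat, with a change of -0.16 (SE 0.30, adjusted p = 1.00), and the arrays overlapped. Against NOR fat the change was 2.06 (SE 0.30, adjusted p = 0.908), and 3 of the 4 Tgfbi probe sets passed the study's thresholds: on 1415871_at the signals were 1051 and 1345 in AAT fat and 513 and 334 in NOR fat, and on 1448123_s_at they were 2212 and 2202 in AAT fat and 975 and 517 in NOR fat. The direct comparison of the treatments gave a change of -1.92 for PM vs AAT on 1456250_x_at (SE 0.27, adjusted p = 0.192), and -1.67 and -1.60 on 1415871_at and 1448123_s_at, all past the study's thresholds. The PM and AAT arrays did not overlap on any of the 4 probe sets. The 4 probe sets varied together over the 9 fat arrays, with Pearson correlations of 0.775 to 0.934.

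**Figure D2:**
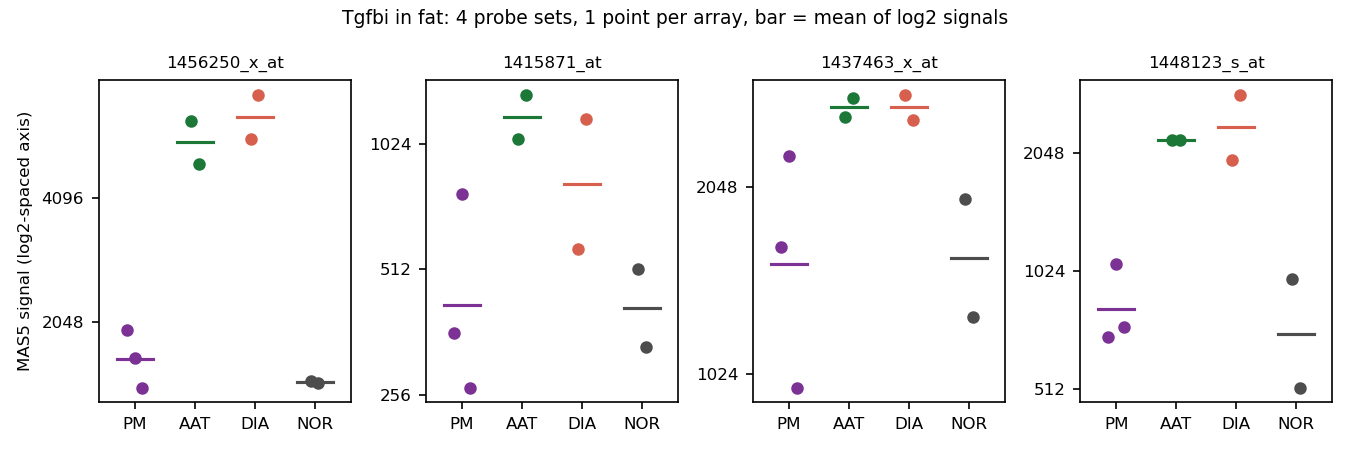
Tgfbi in fat, 1 panel for each of its 4 probe sets, with the MAS5 signal of each array on a log2-spaced vertical axis and the groups PM, AAT, DIA and NOR from left to right; the bar is the mean of the log2 signals. On 1456250_x_at the AAT and DIA points lie at 4958 to 7295 and the PM and NOR points at 1414 to 1951.

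These comparisons share their DIA, AAT or NOR arrays, so their values are not independent of each other. Each call of Tgfbi by the study's thresholds on 1456250_x_at and 1448123_s_at held when any 1 array was left out, and that of 1415871_at was lost in AAT vs NOR without NOR replicate 2 (1.52) or AAT replicate 2 (1.60) and in PM vs AAT without AAT replicate 2 (-1.61). RNA integrity, read as the ratio of 3′ to 5′ signal of beta-actin probe sets, differed between fat groups: it was 3.35 to 6.32 in PM, 5.87 to 9.08 in AAT, 15.2 to 15.5 in DIA and 3.63 to 4.30 in NOR fat. With that ratio as a covariate the Tgfbi change on 1456250_x_at was 1.35 in DIA vs NOR, -1.41 in PM vs DIA, 1.65 in AAT vs NOR and -1.69 in PM vs AAT, all still past the study's thresholds, and on 1448123_s_at it was 2.33, -2.12, 1.98 and -1.76, all past them too. Because the ratio of DIA fat lay outside the range of every other fat group, RNA integrity and diabetes cannot be told apart by this covariate. The same limit holds wherever the ratio is used as a covariate below. The ratio of the Gapdh probe sets was 0.904 to 1.08 in PM, 0.790 to 2.31 in AAT, 2.46 to 4.63 in DIA and 0.910 to 0.946 in NOR fat. It was not used as a covariate.

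Markers of fibroblasts and of macrophages each followed the Tgfbi levels of the fat groups only in part. The summed signal of 11 of 11 fibroblast markers was 26389.1 to 33419 in PM, 62536.4 to 65128.2 in AAT, 50158.7 to 76841.3 in DIA and 37749.3 to 39506.8 in NOR fat, which puts AAT and DIA above PM and NOR on every array. Every PM sum also lay below every NOR sum, with a median change of -0.41 in PM vs NOR, whereas the Tgfbi signals of PM and NOR fat overlapped. That of 14 of 14 macrophage markers was 14199.5 to 16764.5 in PM, 14168.6 to 22045.5 in AAT, 20394.3 to 34883.5 in DIA and 10213.9 to 10618.5 in NOR fat, so PM lay above NOR and overlapped AAT, unlike Tgfbi. The median change of the macrophage markers was 0.49 in PM vs NOR and -0.47 in AAT vs DIA. The macrophage gene Marco was low in all fat groups, with Cd163 low in PM and Fcgr1 low in NOR fat, and among the fibroblast markers Pi16 was low in PM and NOR fat (mean under the 40th percentile). Their part in the Tgfbi result was not tested.

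Beyond Tgfbi, few members of the pathway passed in fat. In DIA vs NOR, 3 of 27 probe sets passed the study's thresholds (7.67% of all transcripts did), 2 of Tgfbi on the higher side (3.79%) and 1 of Smad3 on the lower (3.88%). In PM vs DIA 3 of 27 passed (7.69%), 1 of Smad3 higher (4.6%) and 2 of Tgfbi lower (3.09%). In AAT vs NOR 3 passed (4.56%), all higher (2.23%, with 2.33% lower) and all of Tgfbi, and in PM vs AAT 3 passed (4.88%), all lower (1.83%, with 3.05% higher) and again all of Tgfbi. In AAT vs DIA 0 passed (3.85%, made up of 2.03% higher and 1.82% lower), and in PM vs NOR 0 (3.12%, made up of 2.31% higher and 0.808% lower). No member was called by limma's adjusted p in these 6 comparisons, and neither was any other transcript (0%), although 4036 transcripts in DIA vs NOR, 4365 in PM vs DIA, 2283 in AAT vs NOR, 2500 in PM vs AAT, 1535 in PM vs NOR and 2137 in AAT vs DIA had an unadjusted p under 0.05. The direction of the transcripts that passed depended on the scaling. With the deposited scaling, after quantile normalization and after median centring, 40.2%, 45.4% and 53.3% of them were lower in PM vs DIA, 37.4%, 55.5% and 56.3% in PM vs AAT, 25.9%, 38.7% and 34.0% in PM vs NOR, 51.0%, 41.5% and 38.2% in AAT vs NOR, and 47.3%, 39.5% and 36.6% in AAT vs DIA.

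No ligand passed a threshold in a fat comparison. Tgfb1, the main ligand of immune cells, had signals on 1445360_at of 369 and 474 in DIA fat and 502 and 492 in NOR fat. Its PM signals were 302, 527 and 390, and its AAT signals were 232 and 376. The second Tgfb1 probe set, 1420653_at, ran opposite to the first over the fat arrays (r = -0.543) and had its highest group in AAT, at 718 and 688, against 141 and 535 in NOR fat.

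Tgfb2, a ligand best known from development, on 1450923_at had signals of 115, 274 and 312 in PM, 279 and 206 in AAT, 473 and 276 in DIA and 191 and 194 in NOR fat, so both DIA arrays lay above both NOR arrays. All 4 Tgfb2 probe sets were higher in DIA than in NOR fat by their means. On 1438303_at the AAT (129 to 219) and DIA arrays (110 to 166) lay above all PM (27.6 to 86.9) and NOR arrays (15.7 to 102), without passing. Tgfb3 had signals of 334, 375 and 573 in PM, 530 and 502 in AAT, 428 and 356 in DIA and 608 and 363 in NOR fat, and its groups overlapped except that AAT lay above DIA.

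The receptors did not pass in fat either. Tgfbr1, the type I receptor kinase, had signals on 1420895_at of 1063, 559 and 822 in PM, 1412 and 1323 in AAT, 1266 and 1173 in DIA and 677 and 987 in NOR fat. The AAT and DIA arrays lay above all PM and NOR arrays, with a change of 0.68 in DIA vs NOR (SE 0.37, adjusted p = 0.676) and of -0.78 in PM vs DIA (SE 0.34, adjusted p = 0.574). Tgfbr2, the ligand-binding type II receptor, had signals on 1426397_at of 1725, 1240 and 1987 in PM, 3967 and 1124 in AAT, 2451 and 3714 in DIA and 998 and 1974 in NOR fat, and its DIA change of 1.21 (SE 0.54, adjusted p = 0.583) passed the study's thresholds when NOR replicate 2 was left out (1.90) or when the fit held the DIA and NOR arrays alone. With the actin ratio as a covariate the DIA vs NOR change of both receptors turned, to -1.34 for Tgfbr1 and -2.24 for Tgfbr2. The other Tgfbr1 probe sets ran lower in DIA than in NOR fat, with 132 and 4.83 in DIA fat against 179 and 90.3 in NOR fat on 1420893_a_at (-2.23, SE 1.41, adjusted p = 0.653) and a change of -0.10 (SE 1.02) on 1420894_at, and the groups overlapped on both.

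Among the Smads, Smad3 on 1454960_at had signals of 1194, 1500 and 1228 in PM, 1281 and 1206 in AAT, 1350 and 1057 in DIA and 1427 and 1098 in NOR fat. Another Smad3 probe set, 1450471_at, was low in diabetic fat, with signals of 50.5 and 34.6 in DIA fat against 269 and 154 in NOR fat, and 174, 279 and 186 in PM fat. The change was -2.18 in DIA vs NOR (SE 0.92, adjusted p = 0.513) and 2.17 in PM vs DIA (SE 0.84, adjusted p = 0.441), and both passed the study's thresholds. Both directions turned with the actin ratio as a covariate, to 0.43 and -0.027. The DIA vs NOR call was also lost without NOR replicate 1 (-1.90), DIA replicate 1 (-2.41) or DIA replicate 2 (-1.99), and the PM vs DIA call without DIA replicate 2 (1.98) or PM replicate 2 (2.04).

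Smad4 is the shared partner of the signaling Smads. On 1422487_at it had signals of 2976, 2728 and 2935 in PM, 4106 and 4260 in AAT, 3633 and 2517 in DIA and 2802 and 3263 in NOR fat. Both AAT arrays lay above all others, at 0.52 in AAT vs DIA (SE 0.29, adjusted p = 1.00). On 1422486_a_at the DIA signals of 6114 and 3016 lay above 2039 and 2637 in NOR fat, a change of 1.00 (SE 0.40, adjusted p = 0.552), and on 1422485_at both DIA arrays lay below both NOR arrays (-0.21, SE 0.33). Smad2 on 1420634_a_at had signals of 459, 534 and 587 in PM, 472 and 386 in AAT, 459 and 340 in DIA and 307 and 550 in NOR fat, with overlapping groups. On the other Smad2 probe set, 1442062_at, the DIA (222 to 242) and PM arrays (144 to 407) lay above the NOR arrays (42.0 to 139). Its AAT arrays (125 to 357) overlapped NOR, and no Smad2 value passed in fat. Smad7, the feedback inhibitor, had on 1423389_at 492, 334 and 346 in PM, 560 and 620 in AAT, 298 and 488 in DIA and 311 and 459 in NOR fat. Both AAT arrays lay above all others on this probe set, without passing (0.68 in AAT vs DIA, SE 0.45, adjusted p = 1.00). On 1443771_x_at, which has the higher mean, they did not, with 148, 166 and 202 in PM, 305 and 359 in AAT, 327 and 107 in DIA and 78.1 and 416 in NOR fat (0.87 in AAT vs DIA, SE 0.83, adjusted p = 1.00).

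As a group, the members lay above the median of all transcripts in DIA vs NOR fat (20 of 27 probe sets, median 0.68) and in AAT vs NOR fat (22 of 27, median 0.72), and below it in PM vs DIA (20 of 27 below, median -0.23) and PM vs AAT fat (20 of 27 below, median -0.55). With the actin ratio as a covariate the counts for DIA vs NOR, AAT vs NOR and PM vs DIA did not hold. By the highest-mean probe sets, 8 of 10 genes lay above the median in DIA vs NOR, 9 of 10 above it in AAT vs NOR and 9 of 10 below it in PM vs DIA, whereas with the ratio as a covariate 3, 5 and 3 of 10 did. In PM vs AAT 8 of 10 lay below it, and 7 of 10 with the covariate. Probe sets of 1 gene share their target, so the counts of probe sets do not rest on 27 separate genes.

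Arrays without overlap were counted in the same way. In DIA vs NOR 15 of 27 probe sets did not overlap (41.3% of all transcripts), 12 higher and 3 lower (18% and 23.2%), and in AAT vs NOR 15 (31%), 13 higher and 2 lower (12.9% and 18%). In PM vs DIA there were 7 (30%), 1 higher and 6 lower (18.3% and 11.7%), and in PM vs AAT 12 (20.4%), 1 higher and 11 lower (12.7% and 7.74%). In AAT vs DIA there were 4 (32.6%), all higher (14.9%, with 17.7% lower), and in PM vs NOR 1 (15.2%), which was higher (8.68%, with 6.56% lower).

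**Figure D3:**
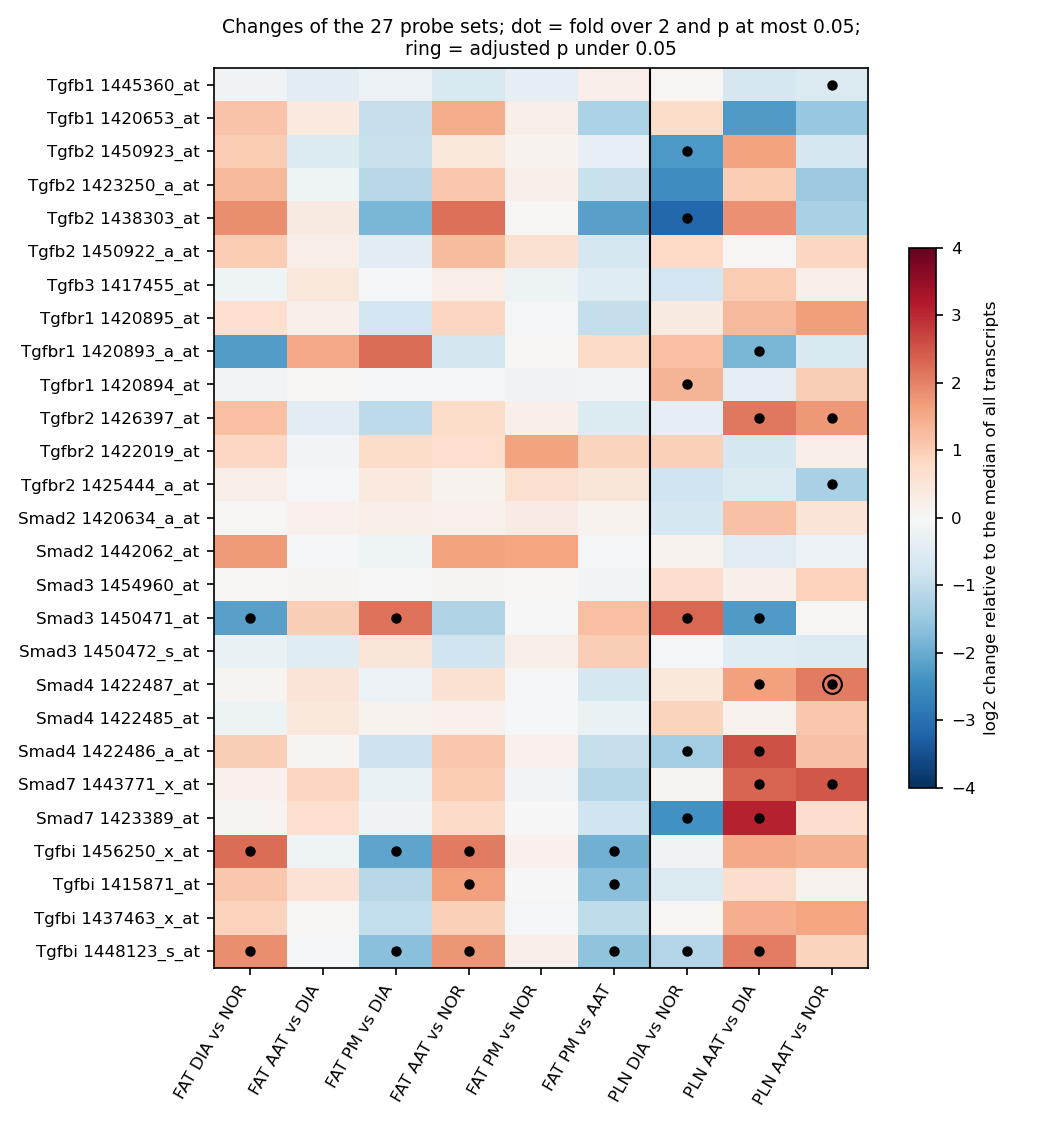
Log2 changes, relative to the median of all transcripts, of the 27 probe sets (one to a line, by gene) in 6 fat and 3 PLN comparisons (columns, first-named group minus the second). Red is higher and blue lower, a dot marks a fold change over 2 with an unadjusted p of at most 0.05, and the ring marks the adjusted p under 0.05 that Smad4 reached in PLN AAT vs NOR.

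The pathway around the members was read from lists that were chosen with earlier results of these data known. Of 13 measured genes of ligand latency and activation, 2 passed higher in DIA vs NOR fat and 0 lower, against 3.32% and 3.46% of all genes. They were Itgav, the integrin chain that frees latent TGF-beta, at 1.29 (SE 0.52, adjusted p = 0.541), and Mmp2, a matrix protease, at 1.26 (SE 0.35, adjusted p = 0.426). In PM vs DIA fat 1 passed higher (Mmp9, at 1.38) and 2 lower, against 3.91% and 3.33% of all genes: Itgav at -1.95 (SE 0.47, adjusted p = 0.351) and Ltbp3, a binding protein of the latent complex, at -1.98 (SE 0.74, adjusted p = 0.475). In PM vs AAT fat 2 passed lower, Itgav at -2.29 and Itgb8 at -2.27, against 2.45% of all genes. Of 15 accessory receptors and brakes and of 12 Smad partners and other Smads, none passed in DIA vs NOR, AAT vs DIA or PM vs DIA fat. Decorin (Dcn), which binds the ligand and is also among the fibroblast markers, passed in PM vs AAT at -1.42 (SE 0.36, adjusted p = 0.647).

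Of 23 measured targets, 6 passed higher and 1 lower in AAT vs DIA (2.03% and 1.68% of all genes), and 0 passed higher and 8 lower in PM vs AAT (2.39% and 2.45% of all genes). The contractile genes Tagln and Acta2 led, at 3.00 (SE 0.74, adjusted p = 0.928) and 2.20 (SE 0.60, adjusted p = 1.00) in AAT vs DIA and at -3.81 (SE 0.68, adjusted p = 0.292) and -3.06 (SE 0.55, adjusted p = 0.292) in PM vs AAT. Postn, which encodes a matrix protein, followed at 2.03 and -2.90, and the inhibitor of differentiation Id2 at 1.52 and -2.03. Of the collagen genes, Col1a1 was higher in DIA vs NOR at 1.62 (SE 0.51, adjusted p = 0.451) and lower in PM vs DIA at -2.01 (SE 0.46, adjusted p = 0.350), and Col3a1 and Col1a2 were lower in PM vs DIA at -2.08 and -1.61. In PM vs DIA 2 targets passed higher and 6 lower, and in DIA vs NOR 1 passed in each direction, the lower one being Id1 (-1.24, SE 0.51, adjusted p = 0.485). Id1 passed on the higher side in AAT vs DIA, at 1.53 (SE 0.51), and in PM vs DIA, at 1.26 (SE 0.46, adjusted p = 0.418). The listed genes were not refitted with the actin ratio as a covariate. Of 17 genes of the activin and BMP branch, 0 passed in DIA vs NOR, AAT vs DIA or PM vs DIA fat, and in PM vs AAT only Bmp4 did, at -1.48 (SE 0.37, adjusted p = 0.647). No member of these lists was called by adjusted p in fat.

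In PLNs, members passed the study's thresholds in both directions. In DIA vs NOR, 1 of 2 Smad7 and 2 of 4 Tgfb2 probe sets passed lower. Probe sets of Smad4 and Tgfbi also passed lower there, and those of Tgfbr1 and Smad3 higher. In AAT vs DIA, probe sets of Tgfbr2, Smad4, Smad7 and Tgfbi passed higher and those of Tgfbr1 and Smad3 lower. In AAT vs NOR, probe sets of Tgfbr2, Smad4 and Smad7 passed higher, and those of Tgfb1 and, on another probe set, Tgfbr2 lower. The thresholds were passed by 7 of 27 probe sets in DIA vs NOR PLNs (9.81% of all transcripts), 2 higher (2.66%) and 5 lower (7.15%), and 0 were called by adjusted p, against 0.0555% (limma, with 4489 transcripts at an unadjusted p under 0.05). In AAT vs DIA 8 passed (16.5%), 6 higher (4.83%) and 2 lower (11.7%), and 0 were called (0.0999%, with 7581 at an unadjusted p under 0.05). In AAT vs NOR 5 passed (23.4%), 3 higher (3.36%) and 2 lower (20%), and 1 was called (3.74%), higher (1.1%). Arrays did not overlap on 9 of 27 probe sets in DIA vs NOR (23.1%), on 8 in AAT vs DIA (19.5%) and on 3 in AAT vs NOR (15.3%). These comparisons share arrays too.

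Smad7, the feedback inhibitor, was low in diabetic PLNs on 1423389_at. Its signals were 28.9 and 111 in DIA PLNs against 208, 417, 391 and 341 in NOR PLNs, a change of -2.42 (SE 0.70, adjusted p = 0.203). In AAT PLNs they were 348, 365, 268 and 314, within the range of NOR PLNs, and 3.08 above DIA PLNs (SE 0.70, adjusted p = 0.127). Both DIA arrays lay below every AAT and NOR array. The AAT vs DIA value was 1.83 without DIA replicate 1 and then missed the thresholds. The other Smad7 probe set, 1443771_x_at, did not follow it in DIA vs NOR (0.11, SE 0.82, adjusted p = 1.00), with signals of 10969, 873, 1267 and 4726 in AAT PLNs, 595 and 1123 in DIA PLNs and 236, 971, 1373 and 1430 in NOR PLNs. It passed at 2.33 in AAT vs DIA (SE 0.82, adjusted p = 0.287) and 2.47 in AAT vs NOR (SE 0.67, adjusted p = 0.121), and both were lost without AAT replicate 1 (1.78 and 1.90) or AAT replicate 4 (1.97 and 2.11). The AAT vs DIA call was lost also without DIA replicate 1 (1.60) or 2 (3.17), and the AAT vs NOR call also without NOR replicate 1 (1.80). Without a trend in eBayes both calls were lost, and the first also after quantile normalization (1.71) and with either filter on low signal (2.15 and 1.94).

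Smad4 was higher in AAT PLNs, and its AAT vs NOR difference on 1422487_at was the only change of a member called by adjusted p in a comparison within a tissue. The signals were 10462, 5123, 7211 and 8105 in AAT PLNs, 2555 and 5148 in DIA PLNs, and 1992, 3228, 3233 and 3456 in NOR PLNs. Every AAT array lay above every NOR array, with a change of 2.08 (SE 0.35), or 1.36 before the median was subtracted (adjusted p = 0.0398 in limma). Over the settings tried the adjusted p ranged to 0.182, under quantile normalization, where the change was 0.79, and it was 0.136 without a trend, 0.0534 without the arrays that stand apart, and 0.155, 0.0790, 0.0851 and 0.106 without NOR replicate 1, 2, 3 or 4 and 0.0667 and 0.0868 without AAT replicate 3 or 4. Against DIA PLNs the change was 1.63 (SE 0.43, adjusted p = 0.240), which missed the thresholds without DIA replicate 1 (0.84) or AAT replicate 1 (1.58), after quantile normalization (0.52), without a trend, and in a fit of the AAT and DIA arrays alone. As the mean over the 3 Smad4 probe sets the AAT changes were 1.40 against NOR (adjusted p = 0.169) and 1.37 against DIA (adjusted p = 0.325), and neither passed. On 1422486_a_at Smad4 was low in DIA PLNs, at 362 and 1548 against 2433, 1917, 2230 and 1917 in NOR PLNs (-1.39, SE 0.50, adjusted p = 0.293), and higher in AAT PLNs, at 2281, 2879, 2543 and 4228 (2.54 above DIA, SE 0.50, adjusted p = 0.105). Without DIA replicate 1 the first change was -0.15 and the second 1.21, and neither passed. The first was lost after median centring as well. The third Smad4 probe set, 1422485_at, passed in no PLN comparison.

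Tgfbr2 was also higher in AAT PLNs on 1426397_at, with signals of 4718, 11577, 9918 and 10739 in AAT PLNs, 1950 and 4699 in DIA PLNs and 4362, 4648, 5560 and 3036 in NOR PLNs. AAT replicate 1 lay within the range of NOR PLNs and the other AAT arrays above it. The change was 2.11 against DIA (SE 0.47, adjusted p = 0.149) and 1.74 against NOR (SE 0.38, adjusted p = 0.112). The first missed the thresholds without DIA replicate 1 (1.20), and the second without NOR replicate 4 (1.55), AAT replicate 2 (1.53), 3 (1.69) or 4 (1.55). The change against NOR was 0.44 after quantile normalization and no longer passed, nor did it without a trend. As the mean over the 3 Tgfbr2 probe sets the changes were 0.23 against DIA and 0.20 against NOR, and neither passed. The probe set 1425444_a_at ran the other way, with 161, 197, 120 and 24.3 in AAT PLNs against 424, 598, 336 and 293 in NOR PLNs (-1.30, SE 0.68, adjusted p = 0.0868). Tgfbr1 on 1420895_at had 4842, 2184, 3436 and 3806 in AAT PLNs, 1736 and 2521 in DIA PLNs and 1801, 1148, 2126 and 2207 in NOR PLNs, and passed neither threshold, since its fold change as measured against NOR stayed under 2. Of its other probe sets, 1420894_at was higher in DIA vs NOR PLNs (1.34, SE 0.57, adjusted p = 0.484) and 1420893_a_at lower in AAT vs DIA PLNs (-1.84, SE 0.87, adjusted p = 0.197), both past the study's thresholds. The first was lost without DIA replicate 2 (0.70) or NOR replicate 1 (1.16), 2 (1.36) or 3 (1.43), and the second without DIA replicate 2 (-0.99). Median centring ended both, the first was also lost without a trend and the second after quantile normalization (-1.63).

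The ligand Tgfb2 was lower in diabetic PLNs on 2 of its 4 probe sets. On 1450923_at the signals were 124 and 11.1 in DIA PLNs against 286, 186, 115 and 252 in NOR PLNs (-2.31, SE 1.04, adjusted p = 0.444), and on 1438303_at 25.6 and 5.28 against 209, 113, 78.7 and 84.4 (-3.16, SE 1.31, adjusted p = 0.398). The arrays did not overlap on the second, and did on the first. With every signal under the 20th percentile of its array raised to that level, the changes were -1.49 and -1.22 and neither passed. Of the other probe sets, 1423250_a_at was at -2.50 (SE 1.502, adjusted p = 0.597) and 1450922_a_at at 0.79 (SE 1.36, adjusted p = 0.921), with 122 and 52.7 in DIA PLNs against 104, 76.7, 6.25 and 128 in NOR PLNs. Without DIA replicate 2 they were -0.90 and -2.35 and did not pass. Without NOR replicate 1 they were -2.18 and -2.91 and did not pass, and 1450923_at was also lost without NOR replicate 2 (-2.28) or 4 (-2.22). Tgfb1 on 1445360_at had 249, 72.0, 372 and 109 in AAT PLNs, 512 and 306 in DIA PLNs and 366, 371, 370 and 515 in NOR PLNs. It was 1 of the 2 probe sets past the study's thresholds on the lower side in AAT vs NOR (-0.57 relative to the median, SE 0.57, adjusted p = 0.171), a call that was lost without any NOR array or AAT replicate 2 or 4 (-0.68 to -0.25), after quantile normalization and after median centring. The other Tgfb1 probe set, 1420653_at, had 3.93 to 278 in AAT, 145 to 306 in DIA and 94.6 to 225 in NOR PLNs, and did not pass. As the mean over the Tgfb1 probe sets the AAT vs DIA change was -1.55 (adjusted p = 0.305 in limma) and passed the study's thresholds. Tgfb3 had 63.1, 261, 188 and 92.2 in AAT PLNs, 93.0 and 99.6 in DIA PLNs and 133, 200, 130 and 290 in NOR PLNs, with both DIA arrays below all NOR arrays and no call.

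Smad2 and Smad3 were uneven. Smad2 on 1420634_a_at had 404, 805, 767 and 786 in AAT PLNs, 351 and 558 in DIA PLNs and 480, 1107, 954 and 665 in NOR PLNs, and no Smad2 value passed in a PLN comparison. Smad3 on 1454960_at had 1295, 859, 1082 and 842 in AAT PLNs, 1433 and 1200 in DIA PLNs and 582, 900, 1065 and 1062 in NOR PLNs, so both DIA arrays lay above all NOR arrays. On 1450471_at it was 2.29 higher in DIA vs NOR PLNs (SE 0.94, adjusted p = 0.445) and -2.28 in AAT vs DIA PLNs (SE 0.94, adjusted p = 0.171), with signals of 33.0, 132, 73.4 and 62.2 in AAT PLNs, 1088 and 216 in DIA PLNs and 161, 149, 99.8 and 55.2 in NOR PLNs. Both calls were lost without DIA replicate 1, the array at 1088, at 1.32 and -1.39, and the first also without NOR replicate 3 (2.30) or 4 (1.94).

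In PLNs the order of the groups differed between Tgfbi probe sets. On 1456250_x_at the signals were 5382, 3474, 4406 and 4189 in AAT PLNs, 2751 and 1869 in DIA PLNs and 3087, 2204, 2271 and 3339 in NOR PLNs. Every AAT array lay above every DIA and NOR array, with changes of 1.51 against DIA (SE 0.40, adjusted p = 0.254) and 1.41 against NOR (SE 0.33, adjusted p = 0.198) that fell short of a fold change of 2 as measured. On 1448123_s_at Tgfbi was lower in DIA vs NOR PLNs, at 744 and 1611 against 3373, 2210, 2403 and 2927 (-1.19, SE 0.47, adjusted p = 0.345), and higher in AAT vs DIA PLNs, with 1653, 5088, 3175 and 3023 in AAT PLNs (2.04, SE 0.47, adjusted p = 0.168). Without DIA replicate 1 these changes were -0.44 and 1.20 and did not pass, and the first was also lost after median centring and without a trend. On 1415871_at the signals were 258, 2166, 993 and 656 in AAT PLNs, 773 and 646 in DIA PLNs and 951, 1070, 1363 and 1269 in NOR PLNs, so the mean was highest in NOR, and on 1437463_x_at they were 4226, 2438, 4345 and 4011 in AAT PLNs, 2200 and 1808 in DIA PLNs and 1487, 1839, 1994 and 3154 in NOR PLNs. Neither probe set passed. The 4 Tgfbi probe sets had correlations in PLNs of -0.37 to 0.84 over 10 arrays.

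**Figure D4:**
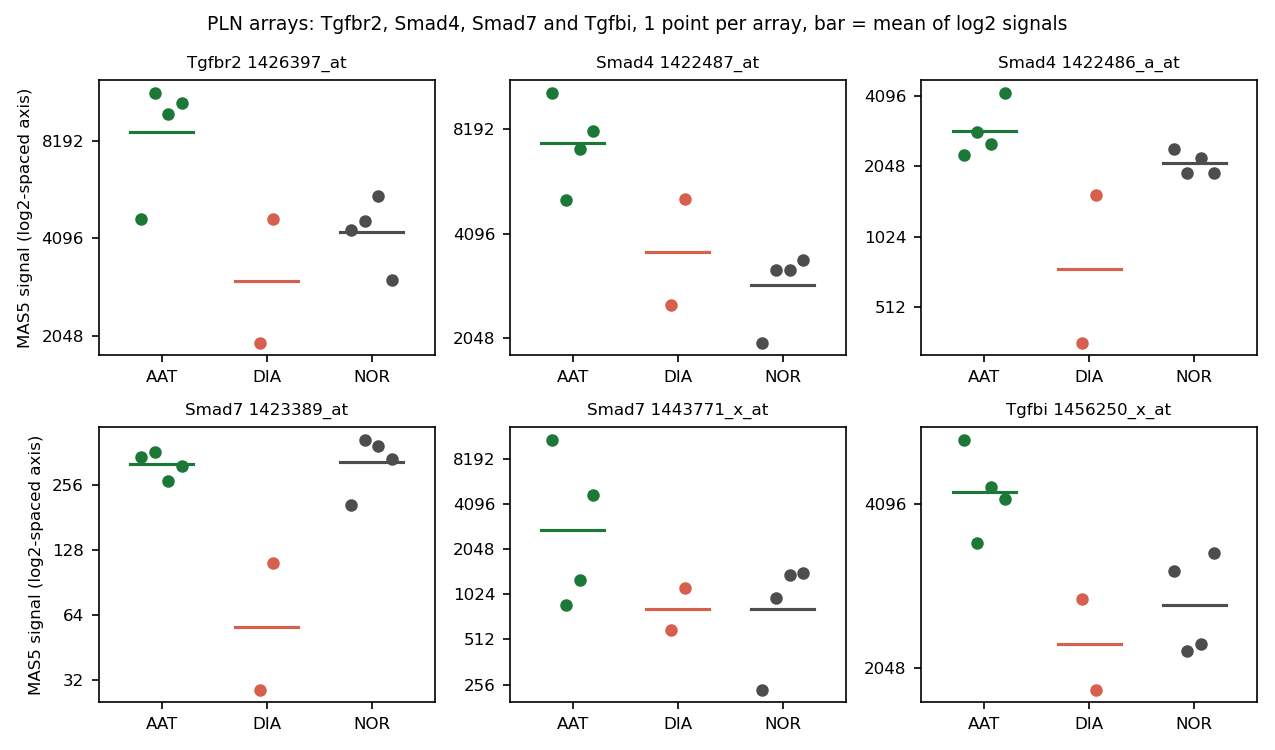
Signals of Tgfbr2, Smad4, Smad7 and Tgfbi probe sets in AAT, DIA and NOR PLNs. Each point is the MAS5 signal of 1 array on a log2-spaced axis and the bar is the mean of the log2 signals. On Smad7 1423389_at the 2 DIA arrays (28.9 and 111) lie below all others, and on Smad4 1422487_at the 4 AAT arrays (5123 to 10462) lie above all NOR arrays.

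The direction of the AAT comparisons in PLNs depends on the scaling of the arrays, which had median signals of 92.3 to 178 in AAT, 152 to 279 in DIA and 179 to 265 in NOR PLNs. In DIA vs NOR, 72.9% of the transcripts past these thresholds were lower with the deposited scaling, 58.9% after quantile normalization and 70.3% after median centring. In AAT vs NOR, 85.6% of the transcripts past the study's thresholds were lower with the deposited scaling, 51.8% after quantile normalization and 33.1% after median centring, and the members past them split as 3 higher and 2 lower, 1 and 1, and 8 and 0. In AAT vs DIA 70.8%, 40.4% and 20.2% were lower, and the members split as 6 higher and 2 lower, 4 and 1, and 9 and 1. The summed signal of 14 macrophage markers was 77191.7 to 131220 in AAT, 60791.2 to 87048.7 in DIA and 50800.7 to 73952.8 in NOR PLNs, with Cd163 low in DIA, C1qa low in NOR and Fcgr1 low in both. Of the fibroblast markers 10 of 11 lay above the median in AAT vs DIA (median 1.23), with sums of 4580.86 to 26297.5 in AAT, 8680.57 to 9266.14 in DIA and 7476.06 to 18801.4 in NOR PLNs, and of the endothelial markers 8 of 11 did (median 1.21), with sums of 3488.94 to 11373.4, 3103.32 to 5015.72 and 4205.23 to 6102.92 in the same groups. Of the adipocyte markers 8 of 10 lay above the median in AAT vs NOR (median 1.61), and every AAT array (8332.55 to 28554.8) had a higher sum than every DIA (3470.54 to 5768.39) and NOR array (3536.43 to 6059.8). The ratio of 3′ to 5′ signal of the Gapdh probe sets was 7.43, 20.6, 8.30 and 25.0 in AAT, 10.8 and 10.02 in DIA and 5.55, 6.55, 8.01 and 5.58 in NOR PLNs, highest on AAT replicates 2 and 4. The ratio of the beta-actin probe sets was 1.23 to 2.01 in AAT, 0.881 to 1.10 in DIA and 0.940 to 2.31 in NOR PLNs. The part of these markers and of these ratios in the Tgfbr2, Smad4, Smad7 and Tgfbi values of AAT PLNs was not tested.

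Of 23 measured TGF-beta targets in PLNs, 8 passed higher and 1 lower in AAT vs DIA (7.74% and 8.11% of all genes), and 4 higher and 1 lower in AAT vs NOR (4.92% and 15.5%). Itgae, the integrin chain CD103 that TGF-beta induces on T cells, was 2.55 higher in AAT vs DIA (SE 0.47, adjusted p = 0.0908), Tsc22d1 was 2.42 higher (SE 0.43, adjusted p = 0.0908) and Col3a1 3.09 (SE 0.62, adjusted p = 0.0989). Against NOR PLNs, Id2 at 2.56 (SE 0.37, adjusted p = 0.0166) and Tsc22d1 at 2.15 (SE 0.35, adjusted p = 0.0333) were called. Of the 13 latency genes 2 were called higher and 1 lower in AAT vs NOR (1.82% and 1.75% of all genes): Ltbp1, a binding protein of the latent complex, at 2.23 (adjusted p = 0.0224), Itgav at 2.65 (adjusted p = 0.0260), and Thbs1, an activator, at -2.82 (adjusted p = 0.0452). These listed genes were not refitted under another scaling. In AAT vs NOR, 496 transcripts were called higher and 1190 lower with the deposited scaling. The counts were 102 and 117 after quantile normalization, and 1310 and 268 after median centring. Over the highest-mean probe sets of all genes, the median relative change was 0.28 in AAT vs DIA and 0.22 in AAT vs NOR. In DIA vs NOR PLNs 3 targets passed lower and 0 higher (7.87% and 2.03% of all genes), namely Fn1 (-1.22), Snai2 (-1.81) and Col3a1 (-1.30), with adjusted p of 0.305, 0.306 and 0.454. Nrros, which anchors latent TGF-beta on myeloid cells, was the 1 latency gene that passed there, at -2.03 (SE 0.81, adjusted p = 0.363).

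Between tissues, 4 of 7 ligand probe sets were called higher in fat and 5 of 6 receptor probe sets lower. The comparison took the mean over AAT, DIA and NOR in each tissue, and 14 of 27 probe sets were called, 7 higher and 7 lower in fat, where 48.1% of all transcripts were called, 28.3% higher and 19.8% lower. With the replicate number as a block in the fit, 5 of these 14 calls stayed, and those of Tgfb3 and of Tgfbr2 on 1426397_at were among the lost. By the study's thresholds 15 passed (49%), 8 higher (29.2%) and 7 lower (19.8%), and of all transcripts past them 40.4% were lower in fat with the deposited scaling, 48.7% after quantile normalization and 52.1% after median centring. Tgfb3 had signals of 334 to 608 over the 9 fat arrays, PM included (median 428) and 63.1 to 290 over the 10 PLN arrays (median 132). The ranges did not overlap, and fat was 1.51 higher (SE 0.39, adjusted p = 5.41e-04). The Tgfb2 probe sets 1423250_a_at (2.74, SE 0.74, adjusted p = 0.00168) and 1450923_at (1.35, SE 0.51, adjusted p = 0.0115) and the Tgfb1 probe set 1420653_at (2.05, SE 0.72, adjusted p = 0.0102) were called higher in fat too, while Tgfb1 on 1445360_at differed by 0.12 (SE 0.37) and was not called. The 3′ to 5′ ratios also separated the tissues. That of beta-actin was 3.35 to 15.5 in fat and 0.881 to 2.31 in PLN arrays. That of Gapdh was 0.790 to 4.63 in fat and 5.55 to 25.0 in PLN arrays. The part of these ratios in the tissue differences was not tested.

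Tgfbr1 on 1420894_at had signals of 33.0 to 133 in fat (median 69.7) and 243 to 1161 in PLNs (median 474), again without overlap, at -3.37 (SE 0.43, adjusted p = 3.63e-06). The other Tgfbr1 probe sets were at -1.37 and -2.64 and were called as well. Tgfbr2 was called on 1426397_at (-1.52, SE 0.30, adjusted p = 0.00189) and 1425444_a_at (-3.29, SE 0.57, adjusted p = 1.62e-04). Over the AAT, DIA and NOR arrays, only 2 of 27 probe sets did not overlap between tissues, those of Tgfb3 and Tgfbr1 just given, where 16% of all transcripts did not (9.49% higher and 6.55% lower).

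The Smads did not line up with either tissue. Smad2 on 1442062_at was lower in fat (-2.16, SE 0.42, adjusted p = 8.53e-04), and Smad4 was higher on 1422485_at (1.09, SE 0.33, adjusted p = 0.00144) and 1422486_a_at (0.80, SE 0.28, adjusted p = 0.00266) while 1422487_at was not called. Smad7 was called in opposite directions, at 0.98 on 1423389_at (SE 0.35, adjusted p = 0.00445) and -2.75 on 1443771_x_at (SE 0.52, adjusted p = 4.78e-04). After median centring 1422486_a_at and 1423389_at were no longer called (adjusted p of 0.116 and 0.0760), and the counts were 5 higher and 7 lower. No Smad3 or Tgfbi probe set was called. Among the other genes of the pathway, 14 of 23 targets were called higher in fat and 3 lower (32.8% and 18.4% of all genes), led by Acta2 (3.54), Id1 (4.25) and Lox (3.17) on the higher side and Itgae (-4.67) on the lower.

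**Figure D5:**
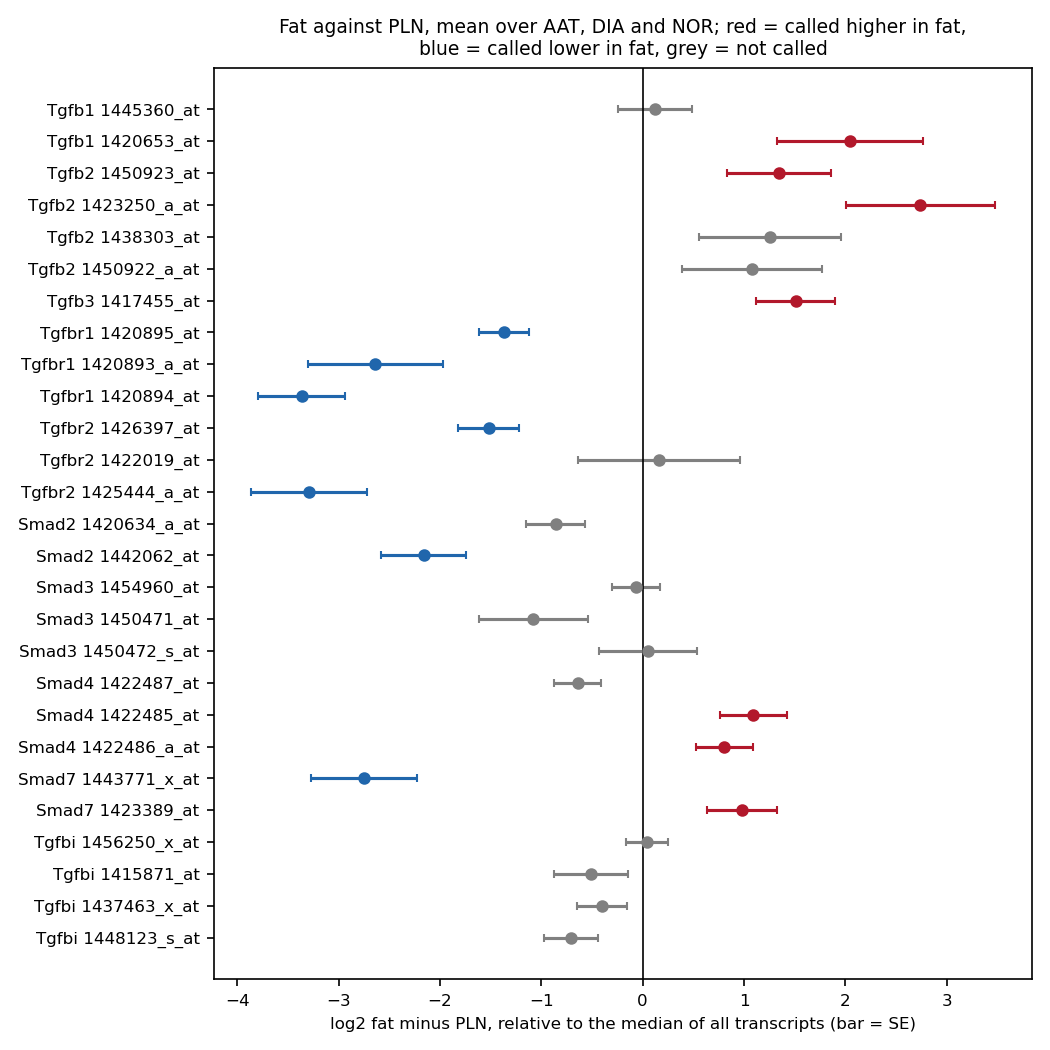
Log2 difference of fat minus PLNs for the 27 probe sets, as the mean over AAT, DIA and NOR, relative to the median of all transcripts, with bars of 1 SE. The horizontal axis is the difference in log2 units, red points were called higher and blue points lower in fat (adjusted p under 0.05), and grey points were not called. Ligand points lie to the right of 0 and those of the receptors to the left, except Tgfbr2 1422019_at (0.16).

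The effect of diabetes on Tgfbi differed between the tissues by 2.29 on 1456250_x_at (SE 0.52) and by 2.94 on 1448123_s_at (SE 0.68), fat minus PLN, and the adjusted p was 0.180 for both. In all, 8 of 27 probe sets passed the study's thresholds for this difference of differences (8.87% of all transcripts), 7 higher (5.65%) and 1 lower (3.23%), and 0 were called (0.00444%, with 3997 transcripts at an unadjusted p under 0.05 in limma). For the difference of the AAT vs DIA change between tissues 7 passed (8.14%), 2 higher (5.13%) and 5 lower (3.02%), and 0 were called (0%, 3667 at an unadjusted p under 0.05), among them Smad4 on 1422486_a_at at -2.36 (SE 0.71, adjusted p = 0.511) and Tgfbr2 on 1426397_at at -2.52 (SE 0.76, adjusted p = 0.504). None of these 7 passed without fat AAT replicate 2. For all transcripts past the thresholds in it, 37.0% were lower with the deposited scaling, 58.1% after quantile normalization and 76.2% after median centring.

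Genes with the profile most like a member were taken by Pearson correlation over the 19 arrays after each tissue's mean was removed, among 10947 genes of at least median level. For Tgfbi on 1456250_x_at they were Vat1 (0.858), Kcnn4 (0.843), Matn2 (0.831), Mtmr4 (0.825) and Scpep1 (0.823). For Tgfbr2 on 1426397_at they were Ist1 (0.884), Tgm2 (0.882), Dpep1 (0.879), Abhd16a (0.874) and Lamp1 (0.862). For Tgfb1 on 1445360_at they were Ccdc91 (0.917), Pvt1 (0.889), Zim3 (0.885), Zfp111 (0.881) and Adcyap1r1 (0.880). Each list holds for the probe set named. The Tgfb1 probe sets had a correlation with each other of -0.543 in fat and 0.308 in PLNs, and those of Tgfbr2 of -0.69 to -0.05 in PLNs. The arrays share their scaling and their groups, so these are descriptions of the profiles.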

How the data were processed

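RNA of fat and PLNs was amplified and hybridised to 19 Affymetrix mouse arrays. The deposited table holds MAS5 signals, a linear intensity, which the authors scaled so that each array's 2% trimmed mean is 500.0 (no source used here states the MAS5 version). RMA values and the rank product test of the study's methods were not used here.

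Of all values, 589 were under 1 and were raised to 1 before log2 was taken, without further normalization. Control probe sets (64) were removed, which left 45037, and 34945 of these name 1 gene, 932 several and 9160 none. With limma 3.58.1 (R 4.3.3), group means were fitted per tissue, or over both tissues for comparisons between them, followed by eBayes with a trend and Benjamini-Hochberg adjustment. The code was first checked on simulated data. The 2 to 4 arrays per group limit the precision.

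All 10 members are named in every comparison, and up to 4 genes of each list by smallest p; Postn in AAT vs DIA was named after its values were seen. Members and lists were chosen with earlier results of these data known. RefSeq promoter windows (GRCm38.p6) were searched for 6 members. Settings varied were the groups in the fit, a replicate block, low-signal filters (40th or 60th percentile), quantile normalization, median centring, a higher floor (20th percentile), an offset of 32, the trend, the actin ratio (fat), the arrays that stand apart (fat NOR replicate 1 and PM replicate 2, PLN DIA replicate 1 and AAT replicate 3), the mean over a gene's probe sets, and each array in turn.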

Additional observations from a re-analysis of the deposited data

Results flagged for a closer look

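Of 54 groups of 4 arrays (each member probe set in AAT and NOR PLNs), 5 hold an array far from the other 3, where chance gives about 1 in 20. The Tgfb1 signal on 1445360_at was 514.594 on NOR replicate 4, against 365.763 to 371.157 on the other NOR arrays. The Tgfb2 signal on 1450922_a_at was 6.25458 on NOR replicate 3, against 76.7 to 128. The Smad2 signal on 1420634_a_at was 403.652 on AAT replicate 1, against 767 to 805. The Smad4 signal on 1422487_at was 1992.1 on NOR replicate 1, against 3228 to 3456, and the Tgfbi signal on 1437463_x_at was 2438.36 on AAT replicate 2, against 4011 to 4345.

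On 5 probe sets both DIA arrays moved one way against NOR in fat and the other way in PLNs. The difference of the 2 changes, fat minus PLN, was 4.93 for Tgfb2 1438303_at (SE 1.76, adjusted p = 0.402), -4.56 for Smad3 1450471_at (SE 1.35, adjusted p = 0.319), 2.29 for Smad4 1422486_a_at (SE 0.71, adjusted p = 0.308), 1.60 for Tgfbi 1415871_at (SE 0.92, adjusted p = 0.632) and 2.94 for Tgfbi 1448123_s_at (SE 0.68, adjusted p = 0.180). None passed the adjustment over all transcripts in limma. These 5 probe sets were picked for DIA and NOR arrays that did not overlap, in opposite directions in the 2 tissues. The share of all transcripts with that pattern was not counted. DIA and NOR arrays did not overlap on 41.3% of all transcripts in fat and on 23.1% in PLNs.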

How the results depend on the processing

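Of 62 member values past the study's thresholds, 625 repeats under the alternatives kept the direction and the thresholds, 124 kept only the direction, and 2 turned: Smad3 1450471_at in fat, at 0.43 in DIA vs NOR and -0.027 in PM vs DIA with the actin ratio as a covariate. Means over the probe sets of Smad3 turned the sign of its highest-mean probe set, to 0.87 in fat PM vs DIA, -0.92 in PLN AAT vs DIA and 1.11 in the difference of AAT vs DIA between tissues. The cause was not tested.

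Counts of member probe sets past the study's thresholds moved as follows. With median centring they were 5 in fat PM vs DIA, 5 in PM vs AAT, and 4 and 8 in PLN DIA vs NOR and AAT vs NOR. With quantile normalization they were 5 in PLN AAT vs DIA and 2 in AAT vs NOR. With the 60th percentile filter, which tests fewer probe sets, they were 4 in PLN DIA vs NOR, 8 between tissues and 4 in the difference of DIA vs NOR between tissues. Without the arrays that stand apart they were 8 in PLN AAT vs NOR, and 5 and 3 in the differences of DIA vs NOR and AAT vs DIA between tissues, and the AAT vs DIA count was also 3 with only the groups compared. Called members in PLN AAT vs NOR numbered 1, or 0 with quantile normalization, without a trend or without the arrays that stand apart, 2 with the higher floor, and 4 with median centring, and between tissues 8 with the 60th percentile filter.

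With each array left out in turn, members past the study's thresholds numbered 3 to 7 in fat DIA vs NOR (7 without NOR replicate 2), 0 to 2 in AAT vs DIA (1 without DIA replicate 1 and 2 without AAT replicate 1), 3 to 5 in PM vs DIA (5 without DIA replicate 1), 3 to 8 in AAT vs NOR (8 without NOR replicate 2 and 6 without AAT replicate 2), 0 to 1 in PM vs NOR (1 without NOR replicate 2, AAT replicate 2 or PM replicate 2) and 3 to 6 in PM vs AAT (6 without PM replicate 1). In PLNs they numbered 4 to 7 in DIA vs NOR (4 without NOR replicate 1 or DIA replicate 2), 3 to 11 in AAT vs DIA (3 without DIA replicate 1) and 3 to 8 in AAT vs NOR (3 without NOR replicate 1 or AAT replicate 4, 8 without AAT replicate 2 or 3), with 0 to 2, 0 to 2 and 0 to 3 called (2 and 2 without DIA replicate 2, and 3 without AAT replicate 1). Between tissues the range was 14 to 16, with 13 to 15 called, and for the differences 6 to 11 and 0 to 8 (0 without fat AAT replicate 2, 2 without fat DIA replicate 2, 3 without PLN DIA replicate 1 and 4 without PLN AAT replicate 1), with 0 to 2 and 0 to 1 called (2 and 1 without PLN DIA replicate 2). Where a group was left with 1 array, that array is assumed to vary like the other groups.

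Same-numbered arrays deviated together in 2 of 12 pairs in fat and 6 of 8 in PLNs (correlation over 0.1). The labels do not say what the numbers mark, and they were not taken as pairs in the main fit. Whether same-numbered PLN arrays share an origin cannot be told from the labels. With the replicate block the called members numbered 2 in PLN AAT vs NOR and 5 of 14 between tissues, where Tgfb1 1420653_at, Tgfb2 1423250_a_at, Tgfbr1 1420894_at, Smad4 1422485_at and Smad7 1443771_x_at were called and Tgfb2 1450923_at (adjusted p = 0.193), Tgfb3 1417455_at (0.0798), Tgfbr1 1420893_a_at (0.233) and Tgfbr2 1426397_at (0.165) were among those that were not, and the count moved in no other comparison by over 1.5 times.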
